A study of Mus musculus with 6 samples.

Results

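The genes described here are 30 genes of cholesterol and fatty acid synthesis, chosen by symbol as textbook enzymes and regulators of both pathways, out of 21526 gene symbols in a table of RNA-seq read counts from mouse gastric corpus epithelium. All 30 were found and all 30 passed the filter on low counts that left 14600 genes for testing. The Yap-activated group has 3 libraries of Yap-activated gastric cancer from mice of genotype CluCreERT2;R26rtTA;HA-Yap+, and the Normal group has 3 libraries of normal stomach from WT mice. Tamoxifen was given to Yap-activated and Normal mice alike, at 2 mg a day over 5 days, with doxycycline food in the last 14 days. CreERT2 is a recombinase that tamoxifen switches on, here carried at Clu, a gene active in only some cells, and rtTA activates its target transgene in the presence of doxycycline. WT mice carry none of these alleles, so an effect of Yap cannot be told apart from one of CreERT2 or rtTA. The labels give neither the age of the mice nor whether each library came from a separate mouse, so p-values reflect library-to-library spread only, part of which may be technical.

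Cholesterol is built from acetyl-CoA in the cytosol and endoplasmic reticulum. The mevalonate pathway makes isoprenoid units, these are joined to squalene, and a chain of sterol enzymes turns squalene into cholesterol. Fatty acids start from the same acetyl-CoA, which is carboxylated, built up to palmitate, and then lengthened by elongases and given double bonds by desaturases. Many genes of both pathways are targets of the SREBP transcription factors, which are made as membrane-bound precursors. Scap escorts these precursors out of the endoplasmic reticulum when sterols are scarce, and Insig proteins hold them back when sterols are plentiful. In the stomach, acid-secreting parietal cells and pepsinogen-secreting chief cells are rich in membranes and lipid, while Yap is a transcriptional coactivator restrained by the Hippo pathway that acts through TEAD proteins on DNA.

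Promoter sequence was examined because these genes are known to be regulated together. In RefSeq's table of promoters (GRCm38.p6), 24 of the 30 genes had an entry, with 31 annotated starts, and the 250 bases before each start were searched on both strands. Fads1, Fdft1, Fdps, Scd1, Scd2 and Sqle had no entry. The letters CCAAT, the core of the box bound by NF-Y, a partner of SREBP at many sterol genes, were present before at least 1 start of 20 of the 24 genes (83.3%), against 37.5% of 27025 genes in the table. The letters TCACNCCAC, the core of a sterol regulatory element, were found before 1 of the 24 genes, Hmgcs1, against 1.22% of all genes. GGAATG, a core bound by TEAD proteins, was found before 1 of the 24, Acss2, against 14.4% of all genes. These are matches of letters in a short window and not measured binding sites. In the windows printed, matches do not overlap, except 2 CCAAT matches on opposite strands in Fasn. Below are the window with the sterol element, those of the gene that fell most and the gene that rose most, and the 100 bases that hold the 3 TEAD matches of Acss2. They are printed 5′ to 3′ on the gene's strand, with CCAAT, TCACNCCAC or GGAATG matches of either strand in capitals (GRCm38.p6, RefSeq).
Hmgcs1, chr13:119690101-119690350, plus strand: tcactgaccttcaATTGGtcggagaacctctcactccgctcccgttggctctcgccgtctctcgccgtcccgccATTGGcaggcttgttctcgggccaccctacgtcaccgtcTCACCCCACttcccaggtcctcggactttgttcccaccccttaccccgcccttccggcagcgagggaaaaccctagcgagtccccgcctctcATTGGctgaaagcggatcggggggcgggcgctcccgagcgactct
Fasn, chr11:120824548-120824797, minus strand: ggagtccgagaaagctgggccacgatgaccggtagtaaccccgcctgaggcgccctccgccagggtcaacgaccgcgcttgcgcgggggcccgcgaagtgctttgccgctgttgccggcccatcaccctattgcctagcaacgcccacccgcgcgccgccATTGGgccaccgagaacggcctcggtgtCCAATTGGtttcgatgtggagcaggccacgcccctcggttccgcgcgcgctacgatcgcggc
Elovl5, chr9:77917115-77917364, plus strand: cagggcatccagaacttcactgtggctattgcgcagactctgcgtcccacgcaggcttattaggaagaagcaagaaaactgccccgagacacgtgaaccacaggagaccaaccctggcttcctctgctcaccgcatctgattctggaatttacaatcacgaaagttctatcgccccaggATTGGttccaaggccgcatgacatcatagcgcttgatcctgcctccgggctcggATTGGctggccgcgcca
Acss2, chr2:155517793-155517892, plus strand: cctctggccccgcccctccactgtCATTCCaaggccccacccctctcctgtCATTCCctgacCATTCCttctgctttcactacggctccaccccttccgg

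**Figure D1:**
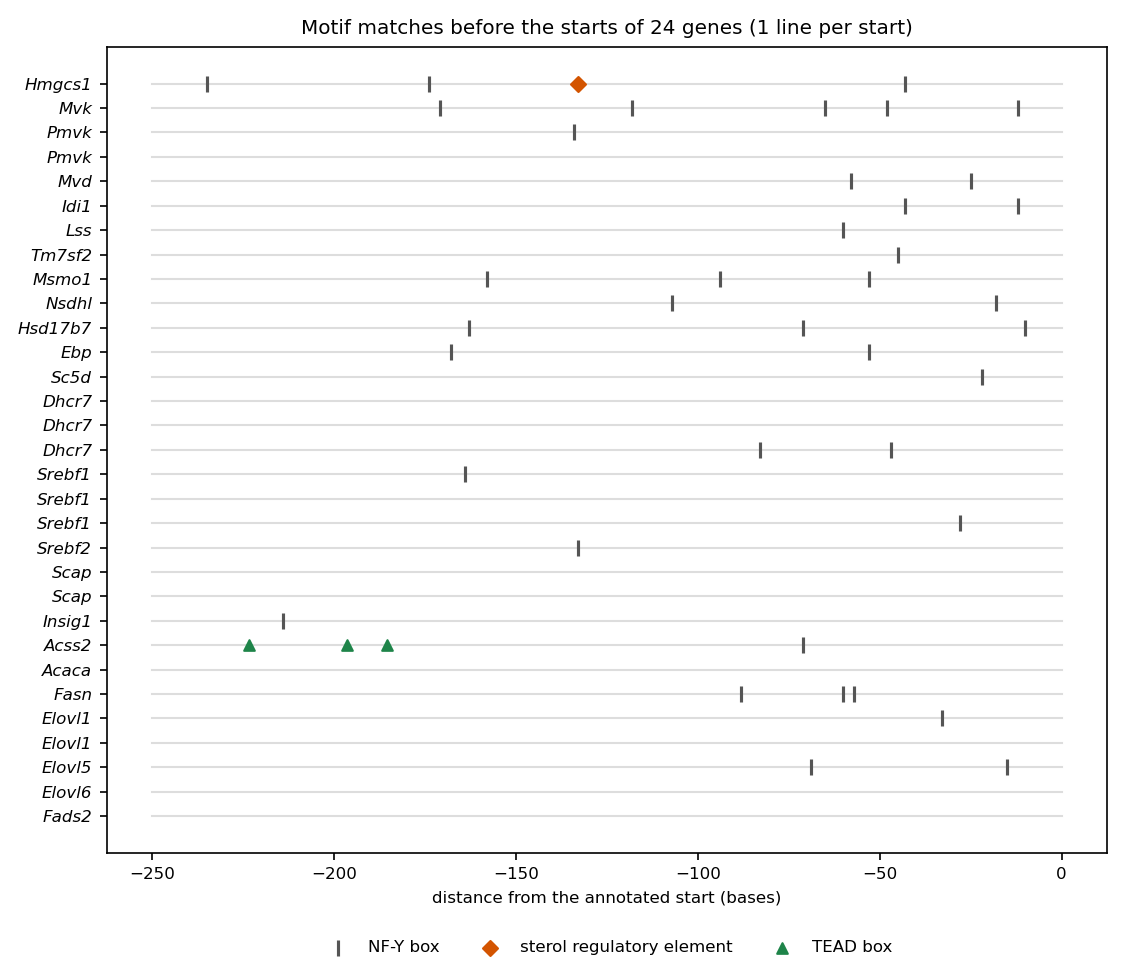
Position of each motif match in the 250 bases before the 31 annotated starts of 24 genes, with distance from the start in bases on the horizontal axis and 1 grey line per start, named by its gene. Grey ticks are CCAAT matches, found in 20 of the 24 genes, the diamond is the sterol element of Hmgcs1 and the triangles are the 3 TEAD matches of Acss2.

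In Yap-activated tissue all 3 genes that make palmitate from acetate fell, led by Fasn, while 4 of 7 genes that lengthen or desaturate fatty acids rose and 1 fell. Among the 16 cholesterol enzymes 4 rose and 4 fell, with Dhcr7, which makes cholesterol in a last step, 2.75-fold lower. Beside these counts, 29.8% of all genes tested rose and 29.7% fell. Neither SREBP gene passed the test, and Scap fell. Expression is given as CPM, read counts scaled to a common library total by the TMM method, and fold changes are of Yap-activated over Normal.

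Of the 30 genes, 8 were higher and 9 lower in Yap-activated libraries at an adjusted p under 0.05 (edgeR's quasi-likelihood test with Benjamini-Hochberg adjustment over all genes tested). Of all 14600 genes tested, 59.5% passed, with 29.8% higher and 29.7% lower, so the share of the 30 that passed is close to that of all genes. The shares higher and lower are also those to set beside the counts of each gene group below. Their median log2 fold change was 0.09, against 0.01 over all genes tested. The groups did not overlap at 18 of the 30, 9 with every Yap-activated library above and 9 with every one below, and did not overlap at 67.6% of all genes (33.2% above and 34.4% below). Library totals ran from 25580734 to 44295619 counts in Yap-activated and from 36815754 to 48440033 in Normal libraries. Scaled by library totals alone, the median log2 fold change of all genes moved up by 0.49, and 76.6% of all calls were higher against 50.0% with TMM. In that setting 15 of the 30 genes were higher and 3 lower, beside 7522 higher and 2299 lower of all 14600 genes tested. Relative to the median of all genes, all 30 kept the sign they had with TMM. This was bound to follow, because the change of scaling moves all genes nearly alike, and it lends the calls no support. Yap1, the targeted gene, had 3085, 1468 and 1651 CPM in Yap-activated libraries, against 100.3, 105 and 106 CPM in Normal.

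**Figure D2:**
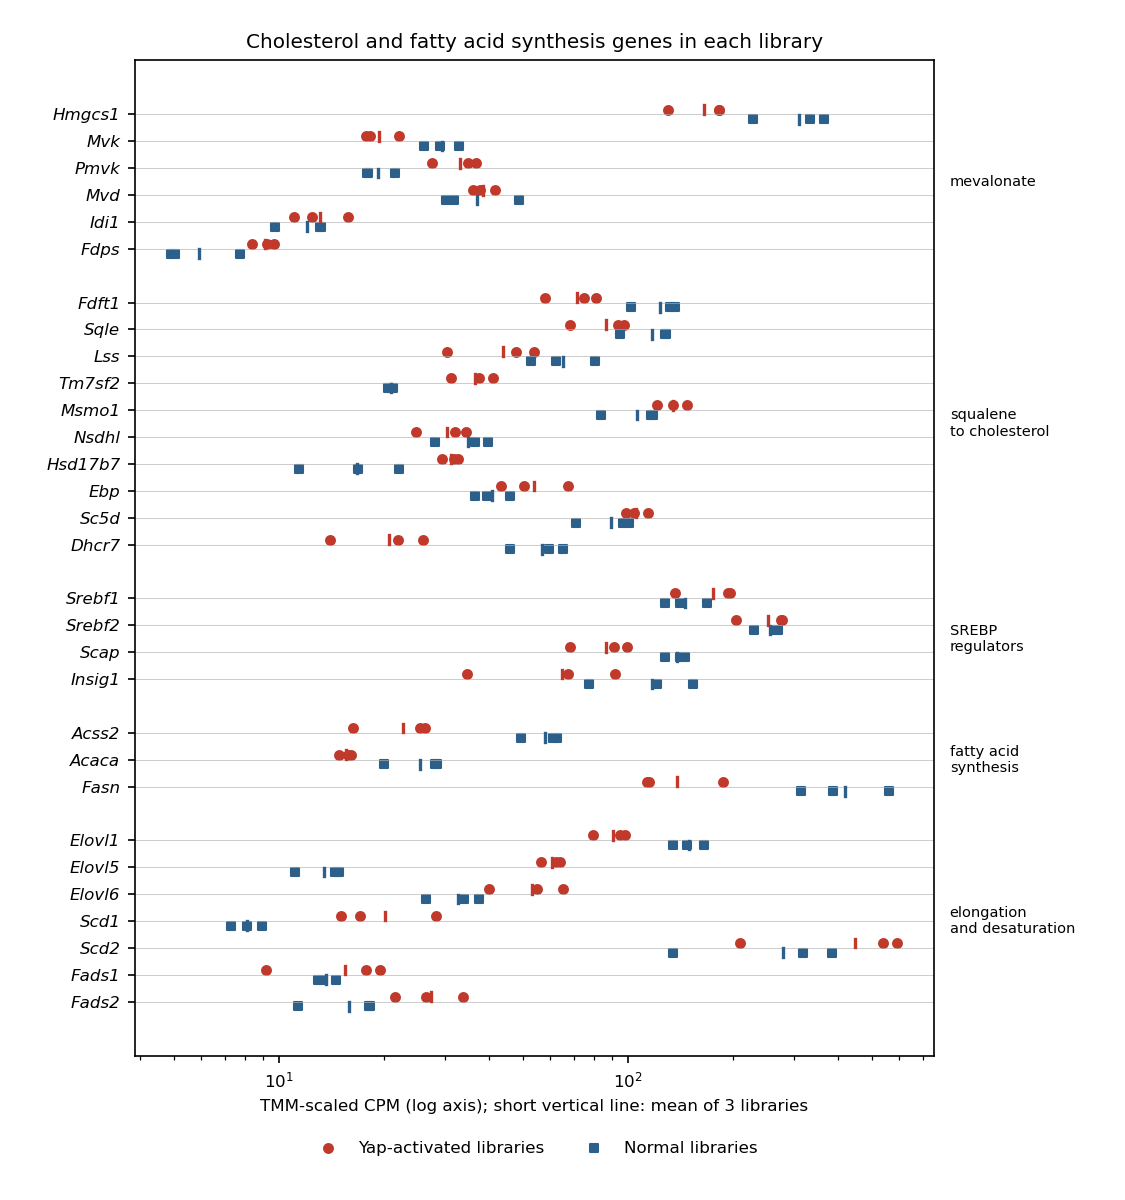
TMM-scaled CPM of the 30 genes on a log axis, with 3 Yap-activated libraries as circles above 3 Normal libraries as squares on each row and a short vertical line at each mean. Elovl5, Dhcr7, Acss2 and Fasn show a wide gap between the groups, while Scd2 spreads from 210 to 592 CPM in Yap-activated and from 134 to 385 CPM in Normal libraries.

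**Figure D3:**
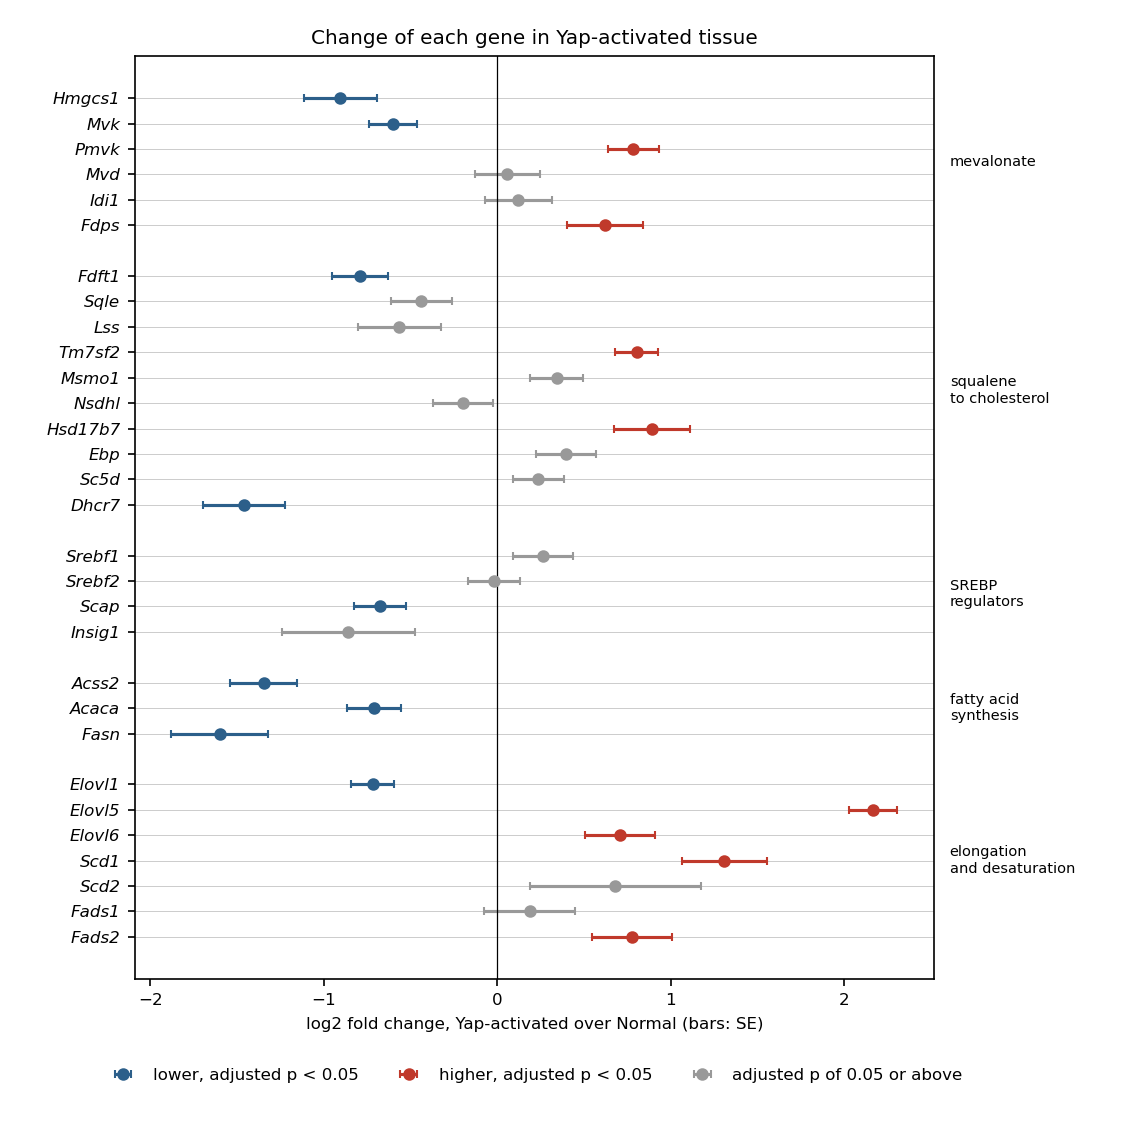
Log2 fold change of Yap-activated over Normal for each of the 30 genes, with bars for the SE and colour for the call at an adjusted p of 0.05. The 3 fatty acid synthesis genes lie left of 0, from -1.60 to -0.71, and Elovl5 lies farthest right at 2.17.

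Of 6 mevalonate pathway genes 2 rose and 2 fell, with a median log2 fold change of 0.09. The first, Hmgcs1, is the cytosolic HMG-CoA synthase on chromosome 13. It had 130.4, 182 and 182 CPM in Yap-activated libraries, against 228, 365 and 333 CPM in Normal. Every Yap-activated library lay below every Normal one, at a log2 fold change of -0.90 (SE 0.21, adjusted p = 0.00678). Mvk, the kinase of mevalonate itself, also fell, with 18.2, 22.1 and 17.7 CPM in Yap-activated libraries, against 26.01, 32.8 and 29.0 CPM in Normal. Mvk stood at -0.60 on the log2 scale, with an SE of 0.14 (adjusted p = 0.00667). Calls of Hmgcs1 and Mvk were lost with library totals alone, where their log2 fold changes were -0.42 and -0.11 (adjusted p = 0.15 and 0.554).

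The next kinase went the other way. Pmvk, which phosphorylates phosphomevalonate, had 27.4, 36.9 and 34.9 CPM in Yap-activated libraries, against 18.03, 21.6 and 17.9 CPM in Normal. The groups were apart, and Pmvk rose 1.72-fold (log2 fold change 0.79, SE 0.15, adjusted p = 0.00235). Mvd, the decarboxylase that yields isopentenyl pyrophosphate, averaged 38.5 ± 2.86 CPM in Yap-activated and 36.9 ± 10.3 CPM in Normal libraries (SD, n = 3 each; adjusted p = 0.799, edgeR). Idi1, the isomerase of that product, averaged 13.1 ± 2.47 CPM in Yap-activated and 12.04 ± 2.00 CPM in Normal libraries (SD, n = 3 each; adjusted p = 0.605, edgeR). At these steps the groups overlapped, and the direction of both genes changed when some single libraries were left out.

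Fdps, which makes farnesyl pyrophosphate, the branch point towards sterols and protein prenylation, had 8.37, 9.28 and 9.67 CPM in Yap-activated libraries. In Normal libraries it had 4.92, 7.77 and 5.06 CPM. It passed narrowly (log2 fold change 0.62, SE 0.22, adjusted p = 0.0402), and not without Yap-activated replicate 2 (adjusted p = 0.0709), Yap-activated replicate 3 (0.0782), Normal replicate 1 (0.131) or Normal replicate 3 (0.14). In GENCODE mouse release 21, Fdps shares 1124 exon bases with Gm43738 on the same strand, whose own count did not exceed 0.119 CPM in any library. The treatment of reads in shared bases was not given in the sources used here. The Fdps count is uncertain in this respect.

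Of 10 genes from squalene to cholesterol 2 rose and 2 fell, with a median log2 fold change of 0.02. Fdft1, the squalene synthase, stands first. It had 58.0, 74.998 and 81.3 CPM in Yap-activated libraries, against 102, 136 and 132 CPM in Normal. No library of one group reached the other, and Fdft1 fell by 0.79 on the log2 scale (SE 0.16, adjusted p = 0.00375), a call lost with library totals alone (-0.30, adjusted p = 0.189). Fdft1 shares 774 exon bases on the opposite strand with Ctsb, a lysosomal protease gene that also fell (log2 fold change -0.65, adjusted p = 0.0277) and averaged 740 CPM in Normal libraries. The strand setting of the counting is unknown, so reads of Ctsb may sit in the Fdft1 count.

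Sqle, the squalene epoxidase and a rate-limiting step, had 68.3, 97.7 and 93.5 CPM in Yap-activated libraries, against 94.8, 129 and 128 CPM in Normal. Both groups met near 95 to 98 CPM, and Sqle did not pass (log2 fold change -0.44, adjusted p = 0.0611). It passed without Yap-activated replicate 2 (-0.54, adjusted p = 0.046) and without Normal replicate 1 (-0.58, adjusted p = 0.0296). Lss, which closes the sterol rings, averaged 44.0 ± 12.2 CPM in Yap-activated and 65.2 ± 14.1 CPM in Normal libraries (SD, n = 3 each; log2 fold change -0.56, adjusted p = 0.0769, edgeR). Lss passed without Yap-activated replicate 2 (-0.74, adjusted p = 0.0399).

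Later enzymes trim and reshape the sterol rings. Tm7sf2, a sterol reductase, had 31.1, 41.1 and 37.5 CPM in Yap-activated libraries, against 20.5, 21.3 and 20.96 CPM in Normal. Normal libraries differed from each other by less than 1 CPM, and the log2 fold change was 0.80 (SE 0.12, adjusted p = 9.38e-04). Tm7sf2 shares 532 exon bases on the same strand with Vps51, which did not pass (log2 fold change -0.12, adjusted p = 0.454). Hsd17b7, which reduces a sterol ketone, had 31.8, 29.3 and 32.5 CPM in Yap-activated libraries, against 11.4, 22.1 and 16.8 CPM in Normal. Hsd17b7 rose 1.86-fold (log2 fold change 0.89, SE 0.22, adjusted p = 0.00924).

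Other enzymes of this stretch did not pass. Msmo1, which oxidises the methyl groups that are then removed, had 122, 148 and 135 CPM in Yap-activated libraries and 83.9, 118 and 117 CPM in Normal. Its groups did not overlap, and its log2 fold change was 0.34 (adjusted p = 0.086). For Ebp, a sterol isomerase, the log2 fold change was 0.40 (adjusted p = 0.0798), and it passed without Yap-activated replicate 1 (0.55, adjusted p = 0.0224). Sc5d, a sterol desaturase, stood at 0.24 (adjusted p = 0.192). Nsdhl, the decarboxylating dehydrogenase of the same demethylation, stood at -0.20 (adjusted p = 0.349) and at 0.29 with library totals alone.

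Dhcr7, whose product is cholesterol itself and whose substrate is also the precursor of vitamin D, lies on chromosome 7 from 143823145 to 143848410 (GRCm38). It had 14.0, 25.9 and 22.002 CPM in Yap-activated libraries, against 45.9, 59.6 and 65.1 CPM in Normal. The highest Yap-activated library lay well below the lowest Normal one. The log2 fold change was -1.46 (SE 0.24, adjusted p = 0.0014), the lowest among the 16 cholesterol enzymes. Leaving out single libraries moved it between -1.66 and -1.24.

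Of the 4 SREBP regulators 1 fell and none rose, with a median log2 fold change of -0.35, and 1 rose without Yap-activated replicate 1. Srebf2, which encodes the SREBP mainly tied to sterol genes, had 204, 275 and 277 CPM in Yap-activated libraries, against 229, 270 and 267 CPM in Normal. Those ranges overlap (log2 fold change -0.02, SE 0.15, adjusted p = 0.928), and the sign changed with the scaling. Srebf1, which gives the SREBP forms tied more to fatty acid genes, had 137, 196 and 194 CPM in Yap-activated libraries, against 128, 169 and 141 CPM in Normal. It stood at 0.27 (SE 0.17, adjusted p = 0.215) and passed without Yap-activated replicate 1 (0.43, adjusted p = 0.0325). Counts per gene do not separate the 2 forms of Srebf1 messenger RNA.

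Scap, the escort of the SREBP precursors, had 68.3, 99.8 and 91.0 CPM in Yap-activated libraries, against 145, 141 and 127 CPM in Normal. The groups were apart, and Scap fell by 0.68 on the log2 scale (SE 0.15, adjusted p = 0.00537), a call lost with library totals alone (-0.18, adjusted p = 0.352). Insig1, which holds Scap in the endoplasmic reticulum and is itself an SREBP target, had 34.7, 91.6 and 67.6 CPM in Yap-activated libraries, against 77.2, 153 and 121 CPM in Normal. Replicate 1 was lowest in both groups, the ranges overlapped, and Insig1 did not pass (log2 fold change -0.86, SE 0.38, adjusted p = 0.092). It passed without Yap-activated replicate 2 (-1.20, adjusted p = 0.0376) and with DESeq2 (adjusted p = 0.0256).

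Ratios of reads of related genes within a library do not depend on the scaling, and 4 were compared with a 2-sided exact permutation test, in which 3 libraries against 3 cannot go below p = 0.1. There were 0.669, 0.712 and 0.700 Srebf1 reads per Srebf2 read in Yap-activated libraries, against 0.558, 0.626 and 0.528 in Normal (exact permutation p = 0.1, adjusted over the 4 ratios 0.2). Reads of Insig1 per read of Insig2, its paralog, were 0.735, 1.71 and 1.005 in Yap-activated libraries, against 1.83, 3.53 and 2.71 in Normal (exact permutation p = 0.1, adjusted 0.2). Neither ratio overlapped between the groups. Those of Scd1 to Scd2 and of Fads2 to Fads1 did overlap (exact permutation p = 0.4 and 0.2, adjusted 0.4 and 0.267).

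The 3 genes that supply palmitate had a median log2 fold change of -1.35. Acss2, the cytosolic and nuclear enzyme that turns acetate into acetyl-CoA, had 16.4, 25.4 and 26.3 CPM in Yap-activated libraries, against 49.3, 62.8 and 61.2 CPM in Normal. The groups were far apart, and Acss2 was 2.54-fold lower in Yap-activated tissue (log2 fold change -1.35, SE 0.19, adjusted p = 6.63e-04). Acss2 shares 395 exon bases on the opposite strand with Gss, which averaged 100 CPM in Yap-activated libraries and rose (log2 fold change 0.60, adjusted p = 0.00699). As the strand setting of the counting is unknown, reads of Gss may sit in the Acss2 count. Acaca, the carboxylase that makes malonyl-CoA for synthesis, had 16.1, 15.8 and 14.9 CPM in Yap-activated libraries, against 20.0, 28.0 and 28.3 CPM in Normal. Acaca fell by 0.71 on the log2 scale (SE 0.16, adjusted p = 0.00528), a call lost with library totals alone (-0.22, adjusted p = 0.287).

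Fasn, the synthase that builds palmitate, is a minus-strand gene at chr11:120805846-120824547 (GRCm38). It had 115, 187 and 114 CPM in Yap-activated libraries, against 314, 559 and 388 CPM in Normal. The groups were far apart relative to their spread, with means of 139 ± 42.1 CPM in Yap-activated and 420 ± 126 CPM in Normal libraries (SD, n = 3 each). Fasn was 3.03-fold lower in Yap-activated tissue (log2 fold change -1.60, SE 0.28, adjusted p = 0.00198). Among the 30 genes this was the lowest log2 fold change.

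The 7 genes of elongation and desaturation had a median log2 fold change of 0.71, with 4 higher, or 2 without Normal replicate 1. Calls over all genes tested also dropped without Normal replicate 1, from 59.5% to 52.5%. Elovl5, which lengthens polyunsaturated fatty acids, had 56.3, 62.4 and 63.8 CPM in Yap-activated libraries, against 11.1, 14.9 and 14.5 CPM in Normal. It rose 4.4996-fold (log2 fold change 2.17, SE 0.14, adjusted p = 1.08e-05), the highest value among the 30 genes, and lies on chromosome 9 from 77917364 to 77984519 (GRCm38). Elovl6, which lengthens palmitate to stearate, had 40.0, 65.1 and 54.8 CPM in Yap-activated libraries, against 26.5, 37.5 and 33.9 CPM in Normal. Elovl6 rose by 0.71 on the log2 scale (SE 0.20, adjusted p = 0.0165). Elovl6 did not pass with Normal replicate 1 left out (adjusted p = 0.0621), nor with Normal replicate 3 left out (0.0512). Elovl1, which makes very long saturated chains, fell instead, with 94.96, 98.4 and 79.5 CPM in Yap-activated libraries, against 135, 148 and 165 CPM in Normal. Elovl1 stood at -0.72 (SE 0.12, adjusted p = 0.00164), a call lost with library totals alone (-0.23, adjusted p = 0.169). Exons of Elovl1 share 53 bases on the opposite strand with Cdc20, a cell cycle gene that rose (log2 fold change 1.77).

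Of the desaturases, Scd1, which puts the first double bond into stearate and palmitate, had 15.1, 28.2 and 17.0 CPM in Yap-activated libraries, against 8.10, 7.29 and 8.98 CPM in Normal. The groups were apart, and Scd1 rose 2.48-fold (log2 fold change 1.31, SE 0.25, adjusted p = 0.00242). Scd2, its paralog, was far more abundant, with 210, 539 and 592 CPM in Yap-activated libraries, against 134, 385 and 317 CPM in Normal. Replicate 1 was lowest in both groups, and Scd2 did not pass (log2 fold change 0.68, SE 0.49, adjusted p = 0.268). With both replicate 1 libraries left out, an alternative chosen after seeing the data, Scd2 stood at 0.69 (adjusted p = 0.0158). Scd1, Scd2, Scd3 and Scd4 are similar in sequence and lie close together on chromosome 19, so the split of reads between them is uncertain.

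Fads2 and Fads1 desaturate polyunsaturated fatty acids in turn, Fads2 first. Fads2 had 21.6, 33.7 and 26.5 CPM in Yap-activated libraries, against 11.3, 18.3 and 18.2 CPM in Normal. It rose 1.71-fold (log2 fold change 0.78, SE 0.23, adjusted p = 0.0207), and did not pass without Yap-activated replicate 2 (adjusted p = 0.0587) or Normal replicate 1 (0.0538). Fads1 had 9.18, 17.8 and 19.5 CPM in Yap-activated libraries, which lie on both sides of 13.4, 12.9 and 14.5 CPM in Normal. At 0.19 (adjusted p = 0.561) it did not pass, and it did without Yap-activated replicate 1 (0.46, adjusted p = 0.0234).

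Levels between genes were compared per kilobase of exon (CPM per kb), with all annotated exons of a gene pooled. Pooled exons can be longer than the messenger RNA present, so ranks are approximate. In Yap-activated libraries Scd2 stood first, at 81.8 ± 37.9 CPM per kb, followed by Hmgcs1 at 35.9 ± 6.53 and Srebf2 at 35.1 ± 5.80 CPM per kb (SD, n = 3). In Normal libraries Hmgcs1 stood first, at 67.2 ± 15.5, followed by Elovl1 at 54.8 ± 5.47 and Scd2 at 51.0 ± 23.7 CPM per kb (SD, n = 3). Single libraries of Scd2 and Hmgcs1 overlapped in Yap-activated tissue, as did those of Hmgcs1, Elovl1 and Scd2 in Normal. Fasn ranked 15 of 30 in Yap-activated and 4 of 30 in Normal libraries, and Elovl5 ranked 12 and 24. Acaca and Fdps held the last places in both groups, at 0.912 and 2.16 CPM per kb in Yap-activated and 1.49 and 1.41 CPM per kb in Normal libraries. The place of Fdps is uncertain, as its count is.

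Within the groups, replicate 1 stood low for most of the 30 genes. Yap-activated replicate 1 was the lowest of its group at 25 of the 30 genes, and Normal replicate 1 the lowest of its group at 26. Over all genes tested, these libraries were lowest at 32.8% and 37.7% of genes. The median gene of the 30 lay 0.29 below its group's mean on the log2 scale in Yap-activated replicate 1, and 0.27 below in Normal replicate 1. Summed over the 30 genes, CPM were 1791, 2730 and 2570 in Yap-activated libraries, against 2168, 3246 and 2853 in Normal. Counts of mitochondrially encoded genes made up 13.8%, 7.49% and 9.30% of Yap-activated libraries and 27.6%, 16.1% and 15.1% of Normal, highest in replicate 1 of both, and their part in the pattern was not tested. Without both replicate 1 libraries, 8 of the 30 genes were higher and 12 lower. Over all genes tested, 50.2% passed in this setting, against 59.5% with all 6 libraries.

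**Figure D4:**
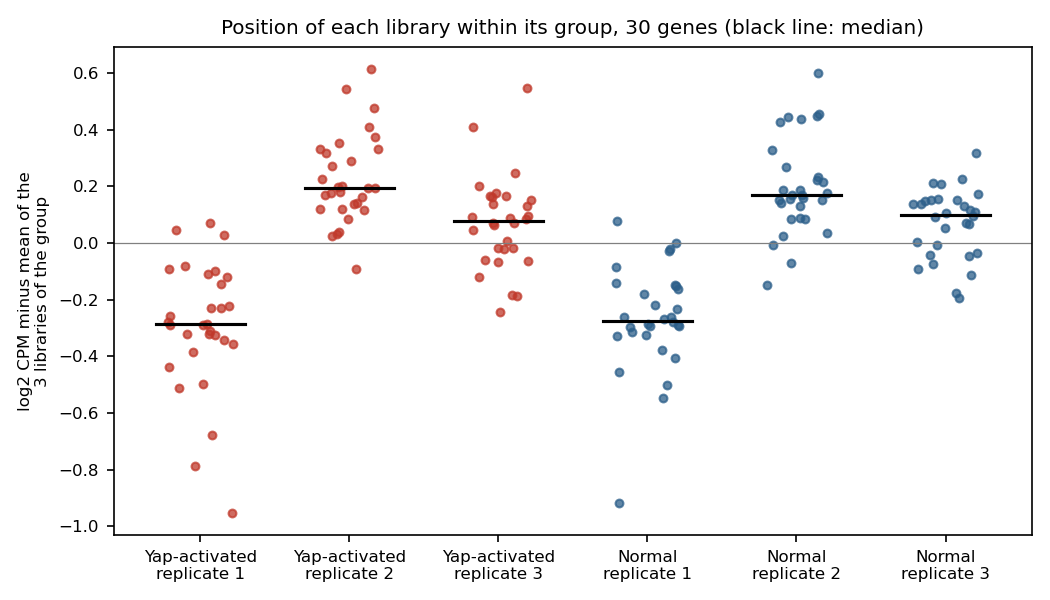
Log2 CPM of each of the 30 genes minus the mean of the 3 libraries of its group, with 1 column of points per library (Yap-activated left, Normal right) and a black line at the median. The medians of replicate 1 are -0.29 in Yap-activated and -0.27 in Normal, below those of the other libraries.

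RNA came from all cells together, so fewer cells of a type and less RNA per cell cannot be told apart. All 8 tested parietal cell markers, of 10 listed, and all 6 tested chief cell markers, of 7 listed, fell in Yap-activated tissue. Summed parietal markers ran from 45.9 to 62.8 CPM in Yap-activated libraries, against 22253 to 30615 CPM in Normal, and chief markers from 160 to 194 CPM, against 90079 to 140596 CPM. Of 6 genes listed as surface mucous cell markers, Gkn3 rose (log2 fold change 1.73, adjusted p = 0.0249). Muc5ac, Gkn1, Gkn2, Tff1 and Psca fell. The 6 summed to 1856 to 2552 CPM in Yap-activated and 47876 to 54931 CPM in Normal libraries. Of 5 genes listed as mucous neck cell markers 3 rose and 1 fell. The 3 that rose were low in Normal libraries, with means of 17.8 CPM for Cd44, 1.13 for Glipr1 and 14.2 for Aqp5. Muc6 and Tff2, with means of 954 and 1360 CPM in Normal libraries, did not rise. Cd44, Glipr1 and Aqp5 were 30.2-fold, 39.1-fold and 8.28-fold higher in Yap-activated tissue, Muc6 fell by 1.25 on the log2 scale, and Tff2 stood at -0.58 (adjusted p = 0.119). Summed mucous neck markers ran from 1627 to 2481 CPM in Yap-activated and from 1933 to 3100 CPM in Normal libraries, so epithelial markers of the stomach were present in both groups. All 4 endothelial markers fell, and of 5 fibroblast markers 2 fell. Of 6 markers of the squamous forestomach none passed, with sums of 45.4 to 69.3 CPM in Yap-activated and 0.601 to 36.3 CPM in Normal libraries. Their median log2 fold change was 2.02. At 4 of the 6 every Yap-activated library lay above every Normal one, as at 33.2% of all genes. Among Normal libraries each marker was highest in replicate 2. Krt13 had 20.2, 35.3 and 23.8 CPM in Yap-activated libraries, against 0.582, 16.7 and 0.0316 CPM in Normal. Of 8 macrophage and neutrophil markers 7 were tested and 6 rose, with sums of 145 to 789 CPM in Yap-activated and 115 to 125 CPM in Normal libraries. The part of these cells in the changes of the 30 genes was not tested. Fat cells also express Fasn and Scd1, and 7 adipocyte markers, of which 3 were tested, 1 rose and 1 fell, summed to 21.3 to 29.8 CPM in Yap-activated and 34.5 to 66.9 CPM in Normal libraries. Adipoq, a gene that defines fat cells, did not exceed 0.203 CPM in any Yap-activated or 0.0582 CPM in any Normal library, and Lep and Plin1 were at 0 in 5 and 3 of the 6 libraries. Others of the list were measurable. Cfd was 14.7-fold higher (adjusted p = 7.75e-04), with 2.34, 0.978 and 0.949 CPM in Yap-activated libraries, against 0.146, 0.0713 and 0.0632 CPM in Normal. Fabp4, which endothelial cells and macrophages also express, had 13.3, 7.54 and 21.1 CPM in Yap-activated libraries, against 61.7, 28.8 and 28.99 CPM in Normal, and fell by 1.51 on the log2 scale (adjusted p = 0.0237). Cidec ran from 7.15 to 12.7 CPM in Yap-activated and from 4.92 to 6.82 CPM in Normal libraries (adjusted p = 0.0566). The part of fat cells in the results was not tested.

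Further genes of the pathways came from 7 lists of 67 genes, of which 63 passed the filter, 14 rose and 26 fell, with a median log2 fold change of -0.21. Of all 14600 genes tested, 29.8% rose and 29.7% fell, the shares to set beside this count and those of each list below. With 1 library left out, 48.1% to 57.7% of all genes tested passed, against 59.5% with all 6 libraries. The count of 14 was 8 without Yap-activated replicate 2, 7 without Yap-activated replicate 3 or Normal replicate 2, 6 without Normal replicate 3 and 5 without Normal replicate 1. Among 6 tested genes of cholesterol synthesis (median 0.03) 1 rose and 1 fell. Acat2, which condenses acetyl-CoA, did not pass (0.22, adjusted p = 0.241), and Idi2 was not tested.

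Of 7 tested genes of the SREBP machinery 2 rose and 3 fell (median log2 fold change -0.32). Erlin1, a protein of the endoplasmic reticulum that restrains SREBP, had 44.7, 45.1 and 43.6 CPM in Yap-activated libraries, against 123, 153 and 125 CPM in Normal (log2 fold change -1.59, SE 0.11, adjusted p = 1.95e-05). Mbtps1, the protease that makes the first cut in SREBP, and Rnf139, a ubiquitin ligase of the same membrane, stood at -0.62 and -0.80 (adjusted p = 0.00257 and 8.12e-04). Calls of Mbtps1 and Rnf139 were lost with library totals alone (adjusted p = 0.446 and 0.085).

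Sterol uptake and transport had 4 genes that rose and 1 that fell among 10 tested (median log2 fold change 0.20). Lrp8, a receptor of apolipoprotein E, had 43.4, 40.2 and 41.5 CPM in Yap-activated libraries, against 4.22, 4.21 and 4.17 CPM in Normal. Values within each group were nearly equal, and Lrp8 rose 9.92-fold (log2 fold change 3.31, SE 0.11, adjusted p = 7.13e-07). Npc1l1, a sterol importer, stood at -2.12 (adjusted p = 0.0166), a call lost without Yap-activated replicate 2 (0.0523) or 3 (0.0556), or Normal replicate 2 (0.0557) or 3 (0.0594).

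Among 10 genes of LXR, the oxysterol receptor, and of sterol efflux, 1 rose and 3 fell (median log2 fold change -0.04). Rxra, the partner of LXR on DNA, fell by 1.52 on the log2 scale (SE 0.14, adjusted p = 5.75e-05). Soat1, which esterifies cholesterol, and Lpcat3, a phospholipid remodelling enzyme, stood at -1.27 and -0.71 (adjusted p = 0.0054 and 0.0044), and Lpcat3 did not pass with library totals alone (adjusted p = 0.3). Nr1h2, which encodes an LXR and was the most abundant of the list, stood at -0.05 (adjusted p = 0.735), with its sign changing with the scaling.

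Of 10 tested genes that supply or control fatty acid synthesis 1 rose and 7 fell (median log2 fold change -0.81). Acacb, the carboxylase at the mitochondrial surface whose malonyl-CoA holds back fat oxidation, had 2.34, 2.50 and 4.48 CPM in Yap-activated libraries, against 205, 249 and 272 CPM in Normal. This is 76.6-fold lower (log2 fold change -6.26, SE 0.29, adjusted p = 4.06e-06), beside the 1.63-fold lower level of Acaca. Acly, which splits citrate into cytosolic acetyl-CoA, stood at -0.85 (SE 0.13, adjusted p = 9.68e-04), and not past the threshold with library totals alone (-0.36, adjusted p = 0.0737). Mecr, of mitochondrial fatty acid synthesis, stood at -1.69 (adjusted p = 1.16e-05). Me1, the malic enzyme that supplies NADPH, rose by 0.63 on the log2 scale (adjusted p = 0.0157), but did not pass with Normal replicate 1 (0.0562) or Normal replicate 3 (0.0591) left out. Olah was not tested.

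Of 13 tested elongation and desaturation genes outside the 30, 3 rose and 8 fell (median log2 fold change -0.70). Fads6, a member of the desaturase family, had 0.881, 0.525 and 0.744 CPM in Yap-activated libraries, against 95.6, 98.3 and 109 CPM in Normal (log2 fold change -7.15, SE 0.18, adjusted p = 2.86e-07). Hacd3 and Tecr, enzymes of the elongation cycle, stood at -1.21 and -0.89 (adjusted p = 1.49e-04 and 0.00176). Paralogs of Hacd3 in the list did not all fall. Elovl7, another elongase, stood at -0.89 (adjusted p = 0.00106). Tecr and Elovl7 did not pass with library totals alone (adjusted p = 0.0785 and 0.0537). Elovl3 was not tested.

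Acyl-CoA synthetases, which activate fatty acids or acetate, had 2 genes higher and 3 lower among 7 (median log2 fold change -0.12). Acsl1 had 17.5, 13.4 and 19.6 CPM in Yap-activated libraries, against 200.03, 230.1 and 279 CPM in Normal (log2 fold change -3.81, SE 0.19, adjusted p = 4.03e-06). Acsl4, which prefers arachidonate, had 50.6, 47.2 and 60.8 CPM in Yap-activated libraries, against 17.9, 24.1 and 24.7 CPM in Normal (log2 fold change 1.25, SE 0.16, adjusted p = 3.14e-04). Acss1, the mitochondrial counterpart of Acss2, stood at -1.96 (SE 0.15, adjusted p = 3.04e-05). Acsl5 was at -0.12 (adjusted p = 0.422), and at 0.37 with library totals alone (adjusted p = 0.0226).

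**Figure D5:**
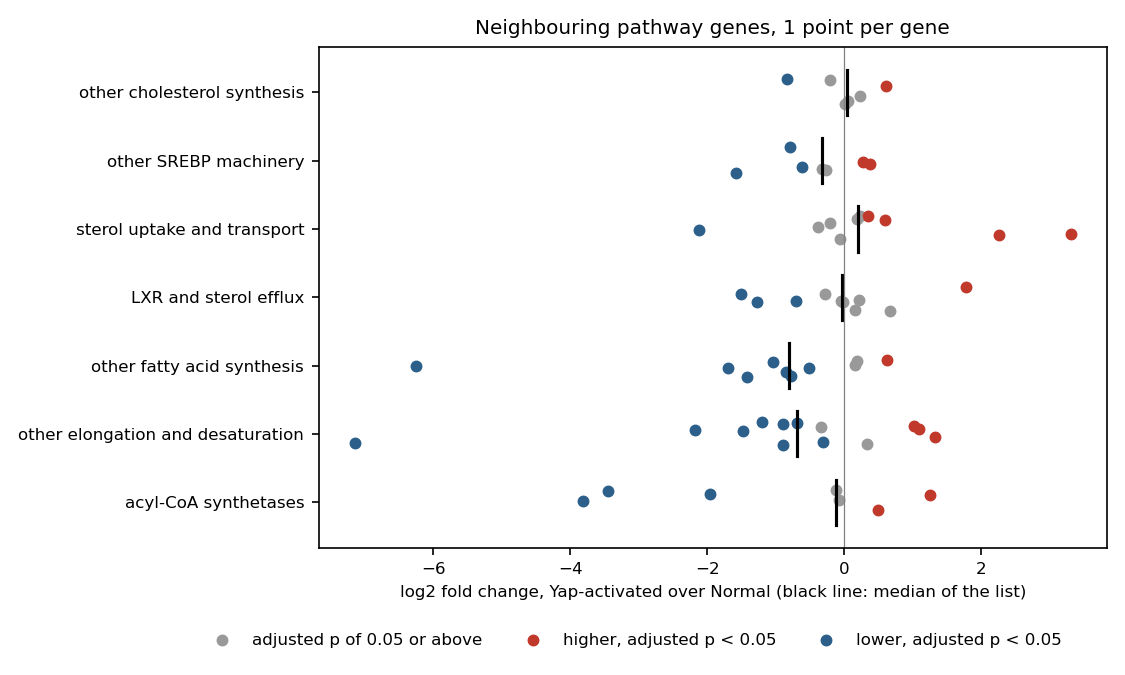
Log2 fold change of Yap-activated over Normal for the 63 tested genes of 7 neighbouring lists, 1 point per gene, with colour for the call at an adjusted p of 0.05 and a black line at each list's median. Acacb at -6.26 and Fads6 at -7.15 lie farthest left, and Lrp8 at 3.31 farthest right.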

How the data were processed

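RNA-seq libraries were made from EDTA-released gastric corpus epithelium with a stranded poly(A) kit and sequenced as paired 50 bp reads, per the labels' protocols. The authors deposited whole-number read counts per gene symbol, not normalized. STAR 2.4.2a, DESeq2, GRCm38 and mm10 are named, per the submitters' processing notes. The counting program, strand setting and annotation were not given in the sources used here. All 6 count columns entered the analysis. Using edgeR 4.0.16 under R 4.3.3, low counts were filtered (filterByExpr, minimum count 10), libraries were scaled by TMM, and Yap-activated was compared with Normal by the robust quasi-likelihood F-test on 6 libraries without covariates, adjusted by Benjamini-Hochberg over 14600 genes at a threshold of 0.05. SE is the log2 fold change over the square root of F. The test was checked on simulated data in which few genes changed, unlike here. That check does not bear on how well TMM scales these data. Alternatives were other scalings and filters, non-robust dispersions, DESeq2 1.42.0, limma 3.58.1 voom, a replicate block and leaving out libraries. Positions and exon lengths come from GENCODE mouse release 21 (GRCm38), which held 21523 of the 21526 symbols. Shared exon bases touch 12 of the 30 genes, among them Hmgcs1 (557 bases) and Scap (985 bases), both on the opposite strand. The 30 genes and all lists were chosen with earlier results of these data known. All 30 are named. In other lists the 3 genes with the smallest p, the one with the highest mean CPM and those not tested are named, except for a few that are not reported here. The symbols Spring1, Cblif and Gif of the lists were not used here.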

Additional observations from a re-analysis of the deposited data

How the results depend on the processing

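Over 17 alternatives, the 5 genes Pmvk, Tm7sf2, Hsd17b7, Elovl5 and Scd1 stayed higher and the 3 genes Dhcr7, Acss2 and Fasn stayed lower. Of 510 values of the 30 genes under alternatives, 453 kept direction and side of the threshold. The alternatives reuse the same libraries, several differ little from the main fit, and genes that passed in neither count as kept. This number therefore lends the calls no support. With library totals alone 15 of the 30 genes were higher and 3 lower; this scaling raises all genes together by its construction. Leaving out 1 library gave 5 to 11 genes higher and 9 to 12 lower, the fewest higher without Normal replicate 1. Of the other pathway genes, 26 were higher and 12 lower with library totals alone, against 14 and 26, and 5 to 12 were higher with 1 library left out.

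Some values changed sign. Library totals alone moved the median log2 fold change of all genes up by 0.49. In that setting Sqle was at 0.0541, Nsdhl at 0.29, Srebf2 at 0.48, Nr1h2 at 0.45 and Acsl5 at 0.37. With upper-quartile scaling Srebf2 was at 0.0328 and Nr1h2 at 0.0038. Without both replicate 1 libraries Mvd was at -0.0258, Srebf2 at 0.0394 and Nr1h2 at 0.0794. With 1 library left out, values ran from -0.0758 to 0.309 for Mvd, from -0.0408 to 0.243 for Idi1, from -0.0969 to 0.125 for Srebf2, from -0.00195 to 0.463 for Fads1 and from -0.117 to 0.0400 for Nr1h2. The cause of the sign changes with libraries left out was not tested.

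With the replicate number as a block, 11 of the 30 genes were higher and 12 lower, and 58.6% of all genes tested passed. Same-numbered libraries deviated together only weakly over all genes (r = 0.0919, 0.0537 and 0.0860), although each library correlated best with its own number. At the 30 genes same-numbered libraries stood more alike. Replicate 1 was the lowest of its group at 25 genes in Yap-activated and 26 in Normal, and replicate 2 the highest at 21 and 22. The labels do not say whether the numbers pair the samples, so the main test leaves them out. Calls made with the block alone are therefore not read as changes. Genes under about 1 CPM, such as Fads6 in Yap-activated libraries, rest on few reads.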
